A study of Mus musculus with 816 samples.

Results

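The 8 cultures described here are primary mouse microglia that received granulocyte-macrophage colony-stimulating factor (GM-CSF, GMCSF in the labels) as their only stimulus and were collected after 24 h. They are 8 of the 784 cultures, and of the 816 samples, of a stimulus panel, and were chosen by their labels alone, without use of any measured value. They were compared with the 40 cultures labelled untreated (None) at 24 h. GMCSF was given at 0.000005 ug/ul, which is 5.0 ng per ml. In the study, commercial microglia from neonatal mouse brain were grown in coated multi-well plates and stimulated some days after plating. RNA of each well was converted into a barcoded 3′-end library, amplified by T7 transcription in a pool with other wells, and sequenced. The side comparisons used 7 GMCSF cultures and 25 untreated cultures at 72 h, with GMCSF at the same dose, and 11 cultures given IL4 at 50.0 ng per ml for 24 h.

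The GMCSF cultures came from 2 plates. Each of these plates held 4 GMCSF wells and a single lot of cells, Feb15 or May16, so plate and lot cannot be told apart. The Feb15 plate also held 10 untreated wells and the May16 plate 8, and the other 22 untreated cultures came from 4 plates without GMCSF wells. Wells of a plate share their cells and their handling, and the labels do not say that replicates came from separate litters, so p-values here measure the spread between wells. Values are CPM, the reads of a gene per 1e6 mapped reads, without a correction for transcript length, so levels of different genes were not set against each other. GMCSF cultures held from 1.09 to 13.6 M mapped reads (M for 1e6, median 2.96) and untreated cultures from 1.09 to 15 M (median 5.36). In the shallowest wells 1 read is close to 1 CPM. GMCSF replicates 5 and 6 (replicates are numbered in order of deposition), both on the May16 plate, held under 1.5 M reads. They had 7414 and 7252 genes above 5 CPM, against 8096 to 9466 in the untreated cultures. Untreated replicates 5, 6 and 31, of other lots, had 9366, 9125 and 8127 such genes at 1.17, 1.23 and 1.09 M reads. The cause of the lower numbers was not tested.

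GM-CSF is a growth factor for myeloid cells. It binds a receptor made of a ligand-specific alpha chain (Csf2ra) and a signalling beta chain (Csf2rb), which activates the kinase JAK2 and the transcription factor STAT5. Its known roles include survival and growth of macrophages, differentiation of alveolar macrophages and monocyte-derived dendritic cells, and, in brain cell cultures, growth of microglia.

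The cultures carried the markers of macrophages that the label asks for. The summed level of 12 macrophage-wide genes, among them Aif1, Csf1r and Cd68, lay between 16660 and 20140 CPM in the GMCSF cultures, inside the untreated range of 13440 to 32380. Gfap, Aqp4, Slc1a2 and Gja1 of astrocytes, Mog, Mobp, Olig1 and Olig2 of oligodendrocytes, Cldn5 and Cdh5 of endothelium, Dcn and Lum of fibroblasts, Cd3e of T cells and Ly6c2 of monocytes were listed at 0 in all 8 GMCSF cultures. The summed astrocyte list reached 22.6 CPM with GMCSF and 38.1 CPM without, and the summed monocyte list 70.0 and 87.5 CPM. The oligodendrocyte lineage sum was at 52.8, 90.9 and 214.7 CPM with GMCSF (lowest, median, highest) against 34.7, 64.8 and 113 CPM untreated. The endothelial sum had medians of 100.2 and 57.3 CPM and highest values of 169.8 and 188.7 CPM. The fibroblast and pericyte sum had medians of 32.64 CPM with GMCSF and 51.55 CPM untreated, and highest values of 84.02 and 392.3 CPM. The highest sum of T and NK cell markers was 70.0 CPM with GMCSF and 18.4 CPM untreated. The sum over 7 markers of border-associated macrophages was higher, at 480.7, 693 and 1413 CPM (lowest, median, highest) against 283, 477 and 688 CPM untreated. The part of these marker sums in the results was not tested. Among those border-associated markers Pf4 was called higher (log2 fold change 1.33) and Cbr2 lower (-1.51). Among homeostatic markers, Tmem119 and P2ry12 were low already without stimulus, with medians of 14.6 and 3.49 CPM. The sum over 20 homeostatic genes was not, at 5342, 7942 and 12050 CPM untreated (lowest, median, highest) and 4760, 5289 and 7520 CPM with GMCSF. In bulk RNA, fewer cells of a kind and less RNA per cell cannot be told apart.

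Across the transcriptome, the genes called higher with GMCSF included the feedback regulators Socs2 and Cish, the chemokines Ccl6, Ccl9 and Ccl2, and the receptors Ccr1, Clec7a and Fcgr2b. The genes called lower included the transcriptional repressor Bcl6 and the receptors Cx3cr1 and Cxcr4. Of 11602 genes tested, 524 were called (4.52%), with an adjusted p under 0.05 and at least a 2-fold change. Of these 207 were higher (1.78%) and 317 lower (2.73%). Without the 2-fold limit 991 genes (8.54%) passed the adjusted p, 442 higher (3.81%) and 549 lower (4.73%). The median log2 fold change was 1.42 among the higher genes, -1.35 among the lower and -0.07 over all genes tested. The sign was the same on both plates for 204 of the higher and 309 of the lower genes. The calls came from a fit of these same plates, so this is not a separate test. The Feb15 plate alone called 202 of the 524 genes (38.5%) and the May16 plate alone 76 (14.5%). The split between directions depended on scaling, as quantile normalisation gave 254 higher and 203 lower genes. It also depended on the shallow wells. Without GMCSF replicates 5 and 6, 209 genes were higher and 166 lower, and 150 of the 207 higher genes (72.5%) but 120 of the 317 lower genes (37.9%) were called again. Of the genes named below, Clec10a, Angptl4, Osm, Gas6, Nop16, Nolc1, Bcl2a1d and Cdca3 lost their call when single GMCSF cultures were left out.

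**Figure D1:**
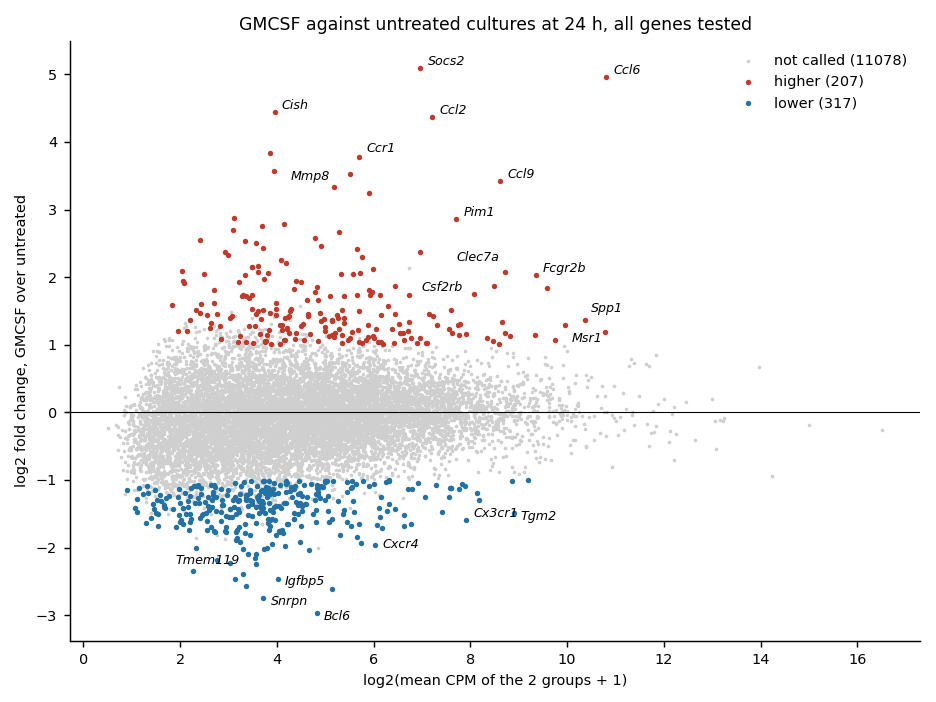
GMCSF against untreated cultures at 24 h for all 11602 genes tested. The x axis gives log2 of the mean CPM of the 2 groups plus 1, the y axis the log2 fold change of the model with plate as block. Red points are the 207 genes called higher, blue points the 317 called lower. The rises reach 5.09 and the falls 2.97 on the log2 scale, and the labelled genes are described in the text.

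In 11 genes (0.0948% of those tested) every GMCSF culture lay above every untreated culture. They were Socs2, Cish, Ccl6, Ccl9, Tfec, Coro2a, Fcgr2b, Msr1, Pygl, Eno1 and Ctsc. In 1 gene, Rcbtb2 (0.00862%), every GMCSF culture lay below every untreated culture, with means of 174 ± 26.8 and 407 ± 153 CPM (SD over 8 and 40 cultures) and a log2 fold change of -1.30. Ctsc, a lysosomal protease, and Rcbtb2 were named after their values were seen.

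The receptor itself changed in its beta chain. Csf2rb (chromosome 15, 78325752 to 78353847, + strand, GRCm38) was at 206, 397 and 683 CPM in the GMCSF cultures (lowest, median, highest) and at 40.3, 132 and 235 CPM untreated, a log2 fold change of 1.75 ± 0.15 (SE, adjusted p = 3.89e-13). In 7 of the 8 cultures it was above all 40 untreated ones. Its near-identical neighbour Csf2rb2, which can share reads with it, was not called (0.58 ± 0.24). The alpha chain Csf2ra had a log2 fold change of -0.12 ± 0.16, Jak2 of -0.40 ± 0.30, Stat5a of 0.07 ± 0.35 and Stat5b of 0.14 ± 0.33, none called. Of the 14 genes of the receptor and its proximal signalling, Csf2rb was the only gene called, and the median log2 fold change was 0.06.

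Genes known as STAT5 targets, feedback inhibitors and survival factors held both the highest rise and the deepest fall. Of 24 such genes, 9 were higher and 1 was lower, with a median log2 fold change of 0.77 against -0.07 over all genes. Over all genes tested 1.78% were higher and 2.73% lower. Socs2, an inhibitor of cytokine receptor signalling (chromosome 10, 95385362 to 95417180, - strand), was at 69.5, 218 and 463 CPM with GMCSF and at 0.883, 4.99 and 22.0 CPM untreated (5.09 ± 0.39, adjusted p = 8.7e-15). The groups did not overlap. Within each plate they were also apart, with log2 fold changes of 5.96 on the Feb15 plate and 4.16 on the May16 plate. Cish, a related inhibitor that STAT5 is known to induce (chromosome 9, 107296026 to 107302784, + strand), was at 11.5, 24.0 and 57.7 CPM against 0, 0 and 1.93 CPM (4.44 ± 0.27, adjusted p = 6.66e-19). Most untreated wells listed Cish at 0, while the lowest GMCSF well held 11.5 CPM. Genes were tested if at least 4 cultures held more than 5 CPM. No untreated well did for Cish, so it was tested only because of its GMCSF values. Its exons overlap 2 predicted genes on the opposite strand, and counting used automated detection of the library type, whose outcome is not given in the sources used here.

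Pim1, a survival kinase, was at 54.6, 352 and 640.1 CPM with GMCSF against 6.81, 58.5 and 297 CPM (2.86 ± 0.35, adjusted p = 2.9e-08), and the groups overlapped. On each plate the GMCSF median was well above the untreated median. Myc, a growth regulator, was at 6.39 to 54.9 CPM against 0 to 21.2 CPM (1.95 ± 0.34), with 6 of 8 cultures above all untreated ones. The anti-apoptotic Bcl2a1a (2.04 ± 0.31) and Bcl2a1d (1.35 ± 0.44) rose as well, but these copies are nearly identical in sequence and the division of reads between them is uncertain, and Bcl2a1d was not called without replicates 5 and 6. Socs3 (1.17 ± 0.32), the cytokine Osm (1.07 ± 0.32) and the cyclin Ccnd2 (1.03 ± 0.27) completed the higher genes. The survival factor Bcl2l1 passed the adjusted p but not the 2-fold limit (0.83 ± 0.20, adjusted p = 0.00392), Mcl1 had -0.15 ± 0.17, and Socs1 was just outside (0.98 ± 0.33, adjusted p = 0.0509).

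Bcl6, a repressor that is known to compete with STAT5 for binding sites, had the largest fall among the named genes. It was at 1.49, 4.69 and 28.1 CPM with GMCSF and at 17.3, 44.6 and 98.9 CPM untreated (-2.97 ± 0.28, adjusted p = 6.94e-12). In 7 of 8 cultures it was below all 40 untreated ones. The exception was replicate 6, a shallow well on the May16 plate, at 28.1 CPM.

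**Figure D2:**
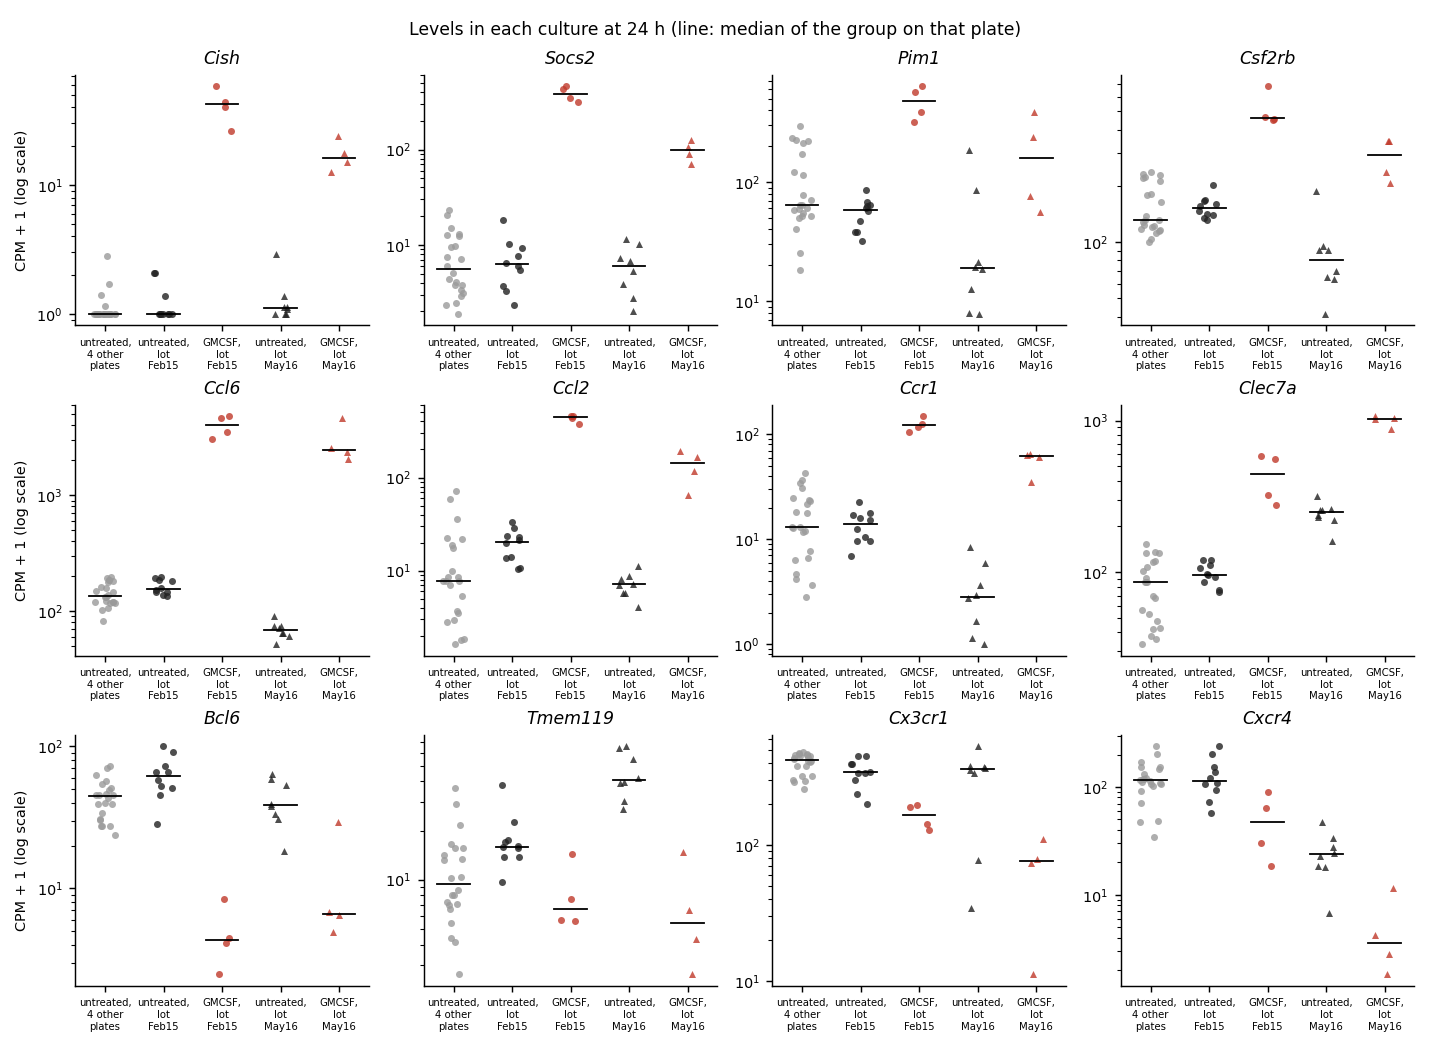
Levels of 12 genes in every culture at 24 h, as CPM plus 1 on a log scale. Grey points are untreated cultures of the 4 plates without GMCSF wells, black points untreated and red points GMCSF cultures of the Feb15 plate (circles) and the May16 plate (triangles), and lines are medians of a group. For Socs2, Cish and Ccl6 all 8 GMCSF cultures lie above all 40 untreated cultures, and for Bcl6 only replicate 6, at 28.1 CPM, lies inside the untreated range.

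Promoter sequence was read because STAT5 is known to bind the palindrome TTCNNNGAA, which reads the same on both strands. The 250 bases before each start site were taken from RefSeq windows (GRCm38.p6), and 147 of the 201 named genes had one. Over all 32851 windows 7.02% held the motif. Of the tested genes with a window, 588 of 8305 (7.08%) held it, as did 17 of 142 higher genes (12%) and 11 of 222 lower genes (4.95%). Among the 20 largest rises, 14 genes had a window and none of them held it. Bcl6 had 2 start sites and 4 matches, the most of any named gene. Its windows follow with matches in capitals, beside the window of Ccl6, a chemokine gene with no match. Each is written 5′ to 3′ along the gene's strand, and a match is a description of letters, not of binding.
Bcl6, chr16:23988853-23989102, - strand: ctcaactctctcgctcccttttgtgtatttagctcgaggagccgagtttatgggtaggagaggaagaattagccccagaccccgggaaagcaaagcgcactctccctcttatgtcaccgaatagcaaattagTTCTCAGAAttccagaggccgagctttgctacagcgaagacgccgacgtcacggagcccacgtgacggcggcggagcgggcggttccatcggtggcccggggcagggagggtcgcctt
Bcl6, internal start, chr16:23981284-23981533, - strand: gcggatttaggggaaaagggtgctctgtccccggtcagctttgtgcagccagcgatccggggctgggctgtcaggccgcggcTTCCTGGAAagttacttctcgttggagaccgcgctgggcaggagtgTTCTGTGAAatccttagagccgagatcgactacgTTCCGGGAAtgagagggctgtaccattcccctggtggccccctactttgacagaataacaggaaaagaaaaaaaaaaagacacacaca
Ccl6, chr11:83593088-83593337, - strand: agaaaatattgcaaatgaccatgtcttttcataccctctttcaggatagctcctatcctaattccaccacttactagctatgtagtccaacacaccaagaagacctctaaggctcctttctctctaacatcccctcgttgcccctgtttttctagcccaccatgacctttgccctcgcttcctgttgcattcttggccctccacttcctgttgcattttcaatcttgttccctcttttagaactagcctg
In the Bcl6 windows the matches end 110 bases before the outer start site, and 160, 114 and 80 bases before the internal one.

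Of 16 chemokines tested, 6 were higher and none was lower by 2-fold, with a median log2 fold change of 0.92. The shares over all genes tested were 1.78% higher and 2.73% lower. Ccl6, a ligand of Ccr1, was at 2042, 3266 and 4811 CPM with GMCSF and at 50.8, 134 and 196 CPM untreated (4.95 ± 0.14, adjusted p = 1.02e-33). The groups were far apart on both plates. Ccl9, its neighbour on chromosome 11 (Ccl6 at 83587882 to 83593087, Ccl9 at 83572919 to 83578636), was at 505, 676 and 1186 CPM against 33.8, 55.9 and 97.3 CPM (3.42 ± 0.16), also without overlap.

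Ccl2, Ccl7 and Ccl12, which attract monocytes and lie on the same chromosome, were also called higher. Ccl2 was at 64.1, 282 and 455 CPM against 0.623, 7.65 and 70.7 CPM (4.36 ± 0.30, adjusted p = 2.58e-16), and a single untreated well reached the lowest GMCSF value. Ccl7 (3.25 ± 0.34) and Ccl12 (2.33 ± 0.36) followed, the latter from a median of 0.860 to 12.5 CPM. Ccl3, another ligand of Ccr1, rose less (1.31 ± 0.21). Ccl4 passed the adjusted p without reaching 2-fold (0.77 ± 0.22, adjusted p = 0.018). Cxcl2, a neutrophil attractant, had a like difference with a wide error (1.10 ± 0.46) and was not called, nor were Ccl5 (0.28 ± 0.19) and the interferon-induced Cxcl10 (0.46 ± 0.32).

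Among 11 chemoattractant receptors, 3 were higher and 2 lower, against 1.78% and 2.73% of all genes tested. Ccr1 was at 34.3, 84.4 and 148 CPM against 0, 10.8 and 41.5 CPM (3.77 ± 0.32, adjusted p = 3.35e-13), with 7 of 8 cultures above all untreated ones. Cmklr1, the chemerin receptor, also rose (1.52 ± 0.30). Cx3cr1, the receptor for the neuronal ligand fractalkine, fell from 33.1, 379.9 and 529 CPM untreated to 10.2, 118 and 196 CPM (-1.60 ± 0.31, adjusted p = 0.000249). Only 2 untreated wells lay at or below the highest GMCSF value. Cxcr4, a receptor for Cxcl12, fell as well (-1.96 ± 0.28). Its untreated level differed between plates, so the groups overlapped when plates were pooled, and on the May16 plate the GMCSF median was 2.54 CPM against 22.8 CPM untreated.

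Of 20 receptors for microbes, antibodies and lipoproteins and integrins tested, 7 were higher and none was lower by 2-fold, with a median of 0.54. The shares over all genes tested were 1.78% and 2.73%. Without the 2-fold limit 9 passed the adjusted p on the higher side and 1 on the lower. Clec7a, the beta-glucan receptor, was at 276, 734 and 1068 CPM against 32.4, 98.1 and 318 CPM (2.08 ± 0.15, adjusted p = 1.46e-15). The plates started from different levels, with untreated medians of 95.0 CPM (Feb15) and 247 CPM (May16), yet the rise was 2.10 and 2.06 on the log2 scale. Fcgr2b, the inhibitory receptor for IgG, was at 771, 969.8 and 1581 CPM against 89.7, 273 and 573 CPM (2.03 ± 0.17). Msr1, a scavenger receptor, was at 1094 to 1516 CPM against 279 to 713 CPM (1.29 ± 0.11). Neither overlapped between groups.

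Clec4n, a receptor for fungal mannans, rose by a larger factor with a wider spread (2.37 ± 0.48), since its lowest GMCSF well was at 3.31 CPM and its highest at 409.9 CPM. The endotoxin receptor Tlr4 (1.31 ± 0.33), the mannose receptor Mrc1 (1.20 ± 0.25) and the integrin chain Itgam (1.16 ± 0.16) were the other genes called. Itgam overlaps the exons of a predicted gene on its strand, and Mrc1 was not called without the plate block. The lipid scavenger Cd36 was not called (-0.42 ± 0.18).

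Of 10 inflammatory cytokines and mediators tested, 2 were higher, the interleukin 1 antagonist Il1rn (1.23 ± 0.23) and Osm, and none was lower. Over all genes tested 1.78% were higher and 2.73% lower. Tnf had a log2 fold change of 0.42 ± 0.21 and Il1b of 0.41 ± 0.39. Il6, Il10, Il12a, Il12b and Il23a did not pass the filter on low values, which required more than 5 CPM in at least 4 of the cultures compared. The 15 interferon-response genes had no gene called in either direction and a median of 0.03. Of 10 complement genes, only Itgam, which is also a complement receptor chain, was called.

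Of 7 tested genes of the MHC class II list, 2 were higher and none was lower. The shares over all genes tested were 1.78% and 2.73%. Cd74, the invariant chain, was at 1.03, 4.99 and 10.0 CPM against 0, 0.501 and 3.26 CPM (1.91 ± 0.34), levels of a few reads in the shallow wells, and it did not pass the filter without replicates 5 and 6. No untreated well exceeded the filter level of 5 CPM, so Cd74 was tested only because of its GMCSF values. H2-DMa, which helps load peptides, was at 38.8, 67.1 and 185 CPM against 9.71, 19.9 and 59.2 CPM (1.5 ± 0.27). The antigen-presenting chains themselves were at the floor, with medians of 0 CPM for H2-Aa and 0.318 CPM for H2-Eb1 with GMCSF. Of 22 genes tied to dendritic cells, 11 were tested. The lectin Clec10a was higher (1.32 ± 0.42), though its log2 fold change was 2.63 on the Feb15 plate and -0.09 on the May16 plate. Cd83 was lower (-1.38 ± 0.32), and the integrin Itgax was not called (0.68 ± 0.25). Flt3, Irf4, Ccr7 and Ccl17 did not pass the filter.

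Of 18 homeostatic microglial genes tested, 4 were lower and none was higher, with a median of -0.55. Over all genes tested 2.73% were lower and 1.78% higher. Tmem119, a microglial surface protein, was at 1.63, 5.05 and 13.8 CPM with GMCSF and 1.63, 14.6 and 64.7 CPM untreated (-2.0 ± 0.33, adjusted p = 1.88e-05). The groups overlapped widely, and 19 untreated wells were at or below the highest GMCSF well. The others were Cx3cr1, Olfml3 (-1.51 ± 0.23) and Gas6 (-1.0 ± 0.11), a bridging ligand for phagocytosis that lay just past the 2-fold limit. Without the plate block only Cx3cr1 was called. The lipid receptor Trem2 passed the adjusted p alone (-0.73 ± 0.12, adjusted p = 1.43e-05), while Csf1r, the receptor of the other main growth factor of microglia, had -0.29 ± 0.12 and P2ry12 0.27 ± 0.38.

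Genes that mark microglia near disease lesions split. Of 18, 3 were higher (Ccl6, Clec7a and the matrix protein Spp1, 1.36 ± 0.18), and none was lower by 2-fold. The shares over all genes tested were 1.78% and 2.73%. Apoe, the lipid carrier, passed the adjusted p on the lower side (-0.94 ± 0.16). Of 10 tested genes of alveolar macrophages and the lipid regulator PPAR gamma, the sterol exporter Abcg1 was higher (1.87 ± 0.25, from a median of 32.4 to 147 CPM) and Angptl4 lower (-1.23 ± 0.38). Angptl4 was not called without the shallow wells. Pparg had 0.93 ± 0.38 and Fabp4 -0.02 ± 0.30, neither called. Of 7 genes linked to the sterol receptor LXR, Abcg1 was again the only gene called.

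Calls in the metabolic and growth lists were set beside the shares over all genes tested, 1.78% higher and 2.73% lower. Of 18 glycolysis genes, Eno1, an enolase, was higher at 800.0, 902 and 1128 CPM against 176, 359.8 and 617 CPM (1.15 ± 0.11), and the median was 0.37. Without the 2-fold limit 6 glycolysis genes passed the adjusted p on the higher side and 2 on the lower, against 3.81% and 4.73% of all genes. Of 16 ribosome biogenesis genes, 8 passed the adjusted p on the higher side and the median was 0.66. Of those only Nolc1 (1.08 ± 0.22) and Nop16 (1.02 ± 0.30) reached 2-fold, and neither was called without the shallow wells. No member of the 28 cell cycle genes or the 18 cholesterol synthesis genes was called, with medians of 0.16 and -0.16. Mki67, a proliferation marker, had 0.42 ± 0.55 and Top2a 0.25 ± 0.49. The 5 other tested genes of colony-stimulating factors and their receptors had none called.

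**Figure D3:**
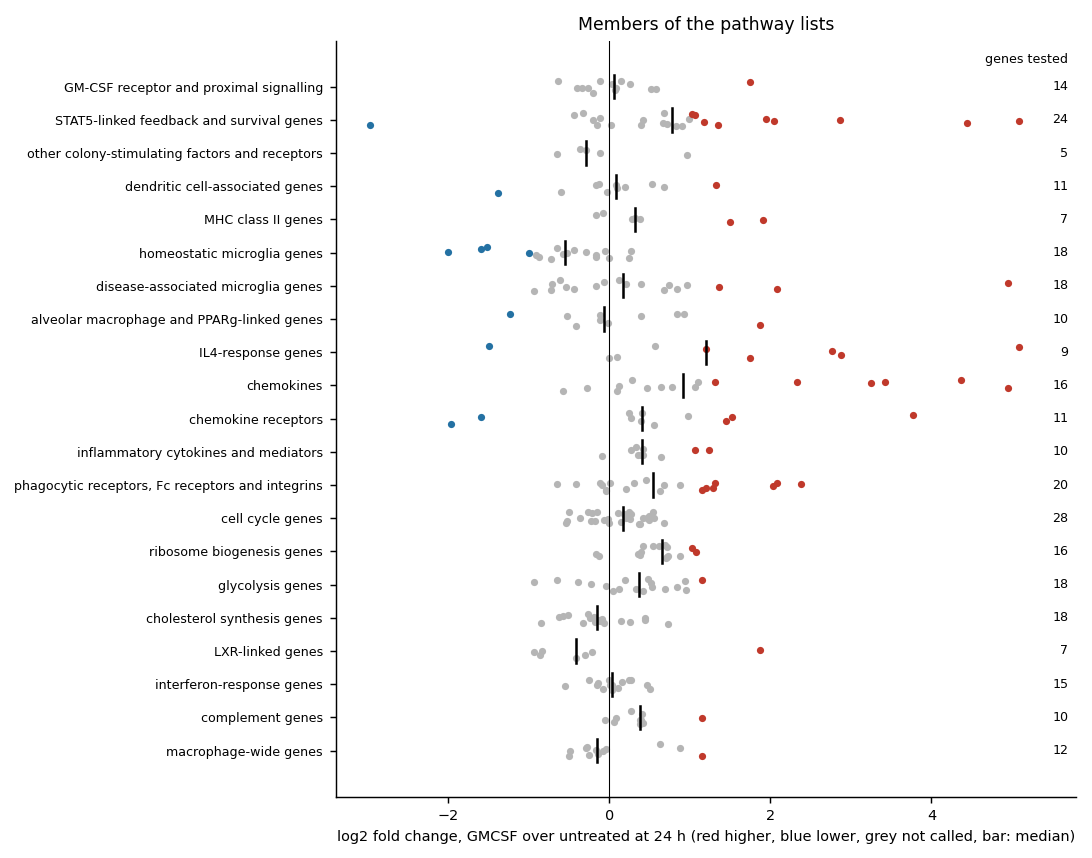
Log2 fold change of each tested member of the 21 pathway lists, GMCSF over untreated at 24 h. Red points were called higher, blue points lower, grey points were not called, black bars are list medians, and the number of genes tested stands at the right. The medians of STAT5-linked genes (0.77), chemokines (0.92) and IL4-response genes (1.20) are the highest, and that of the homeostatic genes (-0.55) the lowest.

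Outside these lists, the largest rises were in enzymes, a transcription factor and adhesion genes. Acy1, an aminoacylase, was at 10.4, 26.5 and 45.4 CPM against 0, 0.0734 and 10.5 CPM (3.84 ± 0.39). Abhd14a, the next gene on the same strand of chromosome 9, also rose (2.53 ± 0.42), and reads running between the 2 genes could not be set apart. Tfec, a transcription factor of the MITF family, was at 43.5, 67.7 and 137 CPM against 0.755, 8.00 and 19.2 CPM (3.52 ± 0.36), without overlap. Among secreted proteases of the matrix, Mmp8 (3.33 ± 0.41), Mmp13 (2.57 ± 0.37) and Mmp12 (1.84 ± 0.16) were higher. The adhesion molecule Cdh1 (2.70 ± 0.44), the signalling adaptor Eps8 (2.78 ± 0.37), the guanine deaminase Gda (2.67 ± 0.29), the heparan sulfate enzyme Hs3st3b1 (2.55 ± 0.36), Asb18 (3.57 ± 0.43) and the guanylate-binding protein Gbp7 (2.45 ± 0.35) were also among the largest rises.

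The largest falls after Bcl6 were in genes with lower levels. Snrpn, which shares sequence with Snurf on its strand, went from an untreated median of 15.2 CPM to 1.16 CPM (-2.74 ± 0.54), with 24 untreated wells at or below the highest GMCSF well. Igfbp5, which binds insulin-like growth factors, was at 0, 3.62 and 14.5 CPM against 6.30, 22.4 and 58.3 CPM (-2.46 ± 0.30), and 5 of 8 GMCSF cultures were below all untreated ones. Fam216a (-2.62), the kinase Srpk3 (-2.57), the elongation factor Tcea2 (-2.35), Gpr162 (-2.24), Mamdc2 (-2.23), Syt8 (-2.18), Rapsn (-2.16), Fam102a (-2.10) and the glutathione transferase Gstt3 (-2.04) completed the falls named.

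The study grouped genes into co-expression modules using cultures that include these, so the modules are not independent of the values here. Of 1364 tested genes in the 31 modules analysed here, 72 were higher and 71 lower. Over all genes tested 1.78% were higher and 2.73% lower, but the study drew module genes from those that varied or changed between conditions. SA_salmon had 8 of 17 tested genes called (47.1%), all higher: Socs2, Ccr1, Arg1, Cdh1, Gda, Il1rl2, Clec10a and Ap2m1. TQ_magenta had 2 higher and 8 lower of 33 (30.3%). The higher genes were Mmp12 and Spp1, and the lower ones included Mamdc2, Cd83 and Htr2b. TQ_turquoise had 6 higher, Clec7a among them, and 18 lower of 143, among them Cxcr4, Olfml3, Gas6 and Rcbtb2. PI_turquoise had 5 higher, with Cd74, H2-DMa and Ctsc, and 2 lower of 35. CY_turquoise had 6 higher of 38, with Ccl9 and Bcl2a1a, and none lower.

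The question of duration was taken up by comparing the GMCSF effect at 24 h with that at 72 h, each against untreated cultures of its own time. All 72 h cultures were of the May16 lot, and on a plate that held 4 GMCSF wells, 3 of these were in a library pool without untreated wells. Well position differed with treatment at 72 h. Of the 7 GMCSF wells 6 were middle wells, while all 10 untreated wells on the same plates were edge or corner wells. In the 2 library pools that held both, 3 middle GMCSF wells stood against 3 untreated edge or corner wells, and 1 GMCSF edge well against 6 untreated edge wells. Of all untreated wells, 15 of 25 were edge or corner wells at 72 h and 10 of 40 at 24 h. Neither block removes this, so in these fits duration and well position cannot be told apart. The contrast was therefore also made in middle wells alone, after the data were seen and without block, against 10 untreated middle wells of another 72 h plate, so there plate and treatment cannot be told apart. At 72 h, with all wells and plate as block, 988 of 10905 genes (9.06%) were called higher in GMCSF than in untreated cultures and 275 (2.52%) lower. In these counts, and in the 72 h log2 fold changes of all wells below, GMCSF and well position cannot be told apart. Of the 24 STAT5-linked genes 3 had a lower effect at 24 h than at 72 h and none a higher one, and of the 14 receptor and signalling genes 1 was higher and 1 lower, with none called within pools. In middle wells 2 of the 24 were higher at 24 h and none lower. At 24 h and 72 h the log2 fold changes were 5.09 ± 0.39 and 4.72 ± 0.65 for Socs2, and -2.97 ± 0.28 and -2.85 ± 0.48 for Bcl6. Cish had 5.43 ± 0.33 and Csf2rb 1.30 ± 0.19 at 72 h. None of these 4 genes was called as different between times, in all wells or in middle wells, which does not show that their effects were alike. The effect on Ccl6 was larger at 72 h (5.99 ± 0.16, difference -1.03, adjusted p = 0.00037), as it was within pools (-1.16) and in middle wells (-1.32 ± 0.31). Ccl2 also had a larger effect at 72 h (6.93 ± 0.50), but its difference was not called within pools or in middle wells.

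Over 12325 genes tested, the effects of the 2 times differed for 956 (7.76%), of which 161 (1.31%) were higher at 24 h and 795 (6.45%) lower. With library pool as block 81 (0.657%) and 258 (2.09%) were called. Quantile normalisation moved the median difference from -0.22 to 0.03 and gave 280 higher and 465 lower. Middle wells alone gave 279 higher and 144 lower of 11719, with a median difference of 0.10. Cell cycle genes depended on the wells compared. No member was called at 24 h. With all wells and plate as block, 23 of 29 had a lower effect at 24 h than at 72 h, 9 of them within pools, and the median log2 fold change was 0.16 at 24 h and 3.02 at 72 h. Without the block 1 of 29 was lower, and in middle wells none of 28, with a median difference of -0.43. Cholesterol synthesis had 14 of 18 lower, 6 within pools and 6 in middle wells, with medians of -0.16 and 1.98 at the 2 times. The summed level of the cell cycle list had medians of 7213 CPM with GMCSF and 4616 CPM untreated at 24 h, and of 8310 and 2945 CPM at 72 h. The GMCSF ranges of the times, 4888 to 9626 and 4687 to 10200 CPM, overlapped. The untreated sum differed between well positions. At 72 h the 10 middle wells lay between 5695 and 6779 CPM. The 15 edge or corner wells lay between 1891 and 3521 CPM, without overlap. The middle wells were all on a plate without untreated edge or corner wells, so position and plate cannot be told apart there. At 24 h the untreated medians were 5076 CPM in 30 middle wells and 3114 CPM in 10 edge or corner wells. Among middle wells the untreated median was thus higher at 72 h (6121 CPM) than at 24 h, and the GMCSF medians were 8605 and 7231 CPM.

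For single genes the values are those of all wells. Ccnb2, a mitotic cyclin, had a log2 fold change of -0.37 ± 0.62 at 24 h and 5.71 ± 0.52 at 72 h. Cdca3 (-1.75 and 4.86), Pbk (-0.81 and 4.91) and Ckap2 (-0.54 and 4.87), which act in mitosis, and Cbr2 (-1.51 and 4.10) and Cd109 (-1.27 and 4.25) had the same order. The integrin Itgax had 0.68 ± 0.25 and 4.22 ± 0.49, and Fabp4 -0.02 ± 0.30 and 3.06 ± 0.41, both called as lower at 24 h. In middle wells Cdca3 (-2.12 ± 0.52), Cbr2 (-4.24 ± 0.80) and Itgax (-4.19 ± 0.68) were again lower at 24 h, while the differences of Ccnb2 (-0.59 ± 0.50), Pbk (-0.58 ± 0.66), Ckap2 (adjusted p = 0.282), Cd109 (-1.88 ± 0.73) and Fabp4 (-0.82 ± 0.48) were not called. In the other direction Clec4n was higher at 24 h (2.37 ± 0.48) and lower at 72 h (-1.22 ± 0.21). The glutathione genes Gclm (0.37 and -3.14), Slc7a11 (0.73 and -2.73) and Gsta3 (-0.10 and -3.80) were not called at 24 h and were lower at 72 h. In middle wells the differences of Clec4n (0.07 ± 0.85), Gclm (0.24 ± 0.26) and Slc7a11 (1.17 ± 0.66) were not called, and Gsta3 did not pass the filter.

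**Figure D4:**
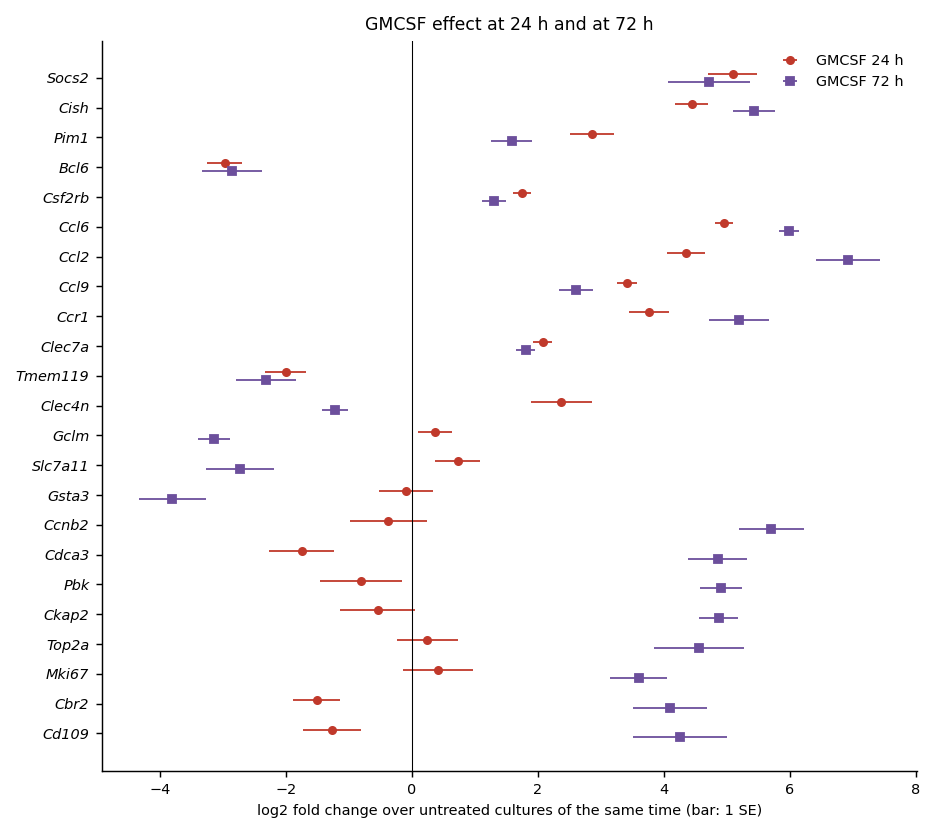
GMCSF effect at 24 h (red circles) and at 72 h (purple squares), each as the log2 fold change over untreated cultures of the same time, with bars of 1 SE. All wells were used, and at 72 h the untreated wells on plates with GMCSF were edge or corner wells. The mitotic genes lie near or below 0 at 24 h and above 3 at 72 h, and in middle wells only Cdca3 of the 4 named in the text was called as different.

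GMCSF was set beside IL4, a cytokine whose receptor signals mainly through STAT6, at the same time of 24 h. The dose by mass differed, the treatments shared no plate, and both effects were measured against the same untreated cultures, so each gene's own values are given side by side. Of 11821 genes tested, 256 differed (2.17%), with 112 (0.947%) higher with GMCSF and 144 (1.22%) higher with IL4. Without the plate block 1244 differed, and in middle wells 251. IL4 itself raised 159 of 11577 genes (1.37%) and lowered 65 (0.561%). Ccl6 had log2 fold changes of 4.95 ± 0.14 with GMCSF and 1.32 ± 0.13 with IL4 (adjusted p of the difference = 4.58e-22). Mmp8 had 3.33 ± 0.41 and -1.06 ± 0.38, Clec4n 2.37 ± 0.48 and -1.75 ± 0.37, and Gbp7 2.45 ± 0.35 and -0.40 ± 0.33. Of 20 phagocytic and Fc receptors 9 were higher with GMCSF than with IL4 and none lower, and of 16 chemokines 7 and none.

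The fall of Bcl6 was seen with GMCSF and not with IL4, with -2.97 ± 0.28 and 0.02 ± 0.19 (adjusted p of the difference = 3.92e-09). The rise of Pim1 was also larger with GMCSF, at 2.86 ± 0.35 and 0.10 ± 0.31 (adjusted p of the difference = 3.4e-05). Socs1 was higher with IL4, with 0.98 ± 0.33 and 3.60 ± 0.28. Socs2 (3.44 ± 0.34 with IL4) and Cish (3.27 ± 0.26) rose with both, and their differences of 1.65 ± 0.49 and 1.18 ± 0.38 missed the threshold (adjusted p = 0.0501 and 0.0855). Clec7a had 2.08 and 2.10, a difference of -0.02 ± 0.20.

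Of 9 genes known as IL4-response genes, 5 were higher with GMCSF (Socs2, Arg1, Mrc1 and the transcription factors Klf4, 2.76 ± 0.36, and Egr2, 1.74 ± 0.44) and 1 was lower, the transglutaminase Tgm2 (-1.5 ± 0.19). Egr2 was not called without the plate block. The list median was 1.20. Over all genes tested 1.78% were higher with GMCSF and 2.73% lower. Arg1, arginase, was at 5.35, 11.2 and 20.0 CPM with GMCSF against 0, 1.56 and 7.33 CPM untreated (2.88 ± 0.33), but at 316, 587 and 1049.6 CPM with IL4. Retnla, a secreted IL4 marker, was listed at a median of 0 CPM with GMCSF and 575 CPM with IL4. Tmem26 had -0.45 ± 0.54 with GMCSF and 5.68 ± 0.44 with IL4. The lectin Mgl2, Cldn11 and Rnase2a were also higher with IL4, with differences of -4.81, -5.26 and -4.60 (GMCSF minus IL4).

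**Figure D5:**
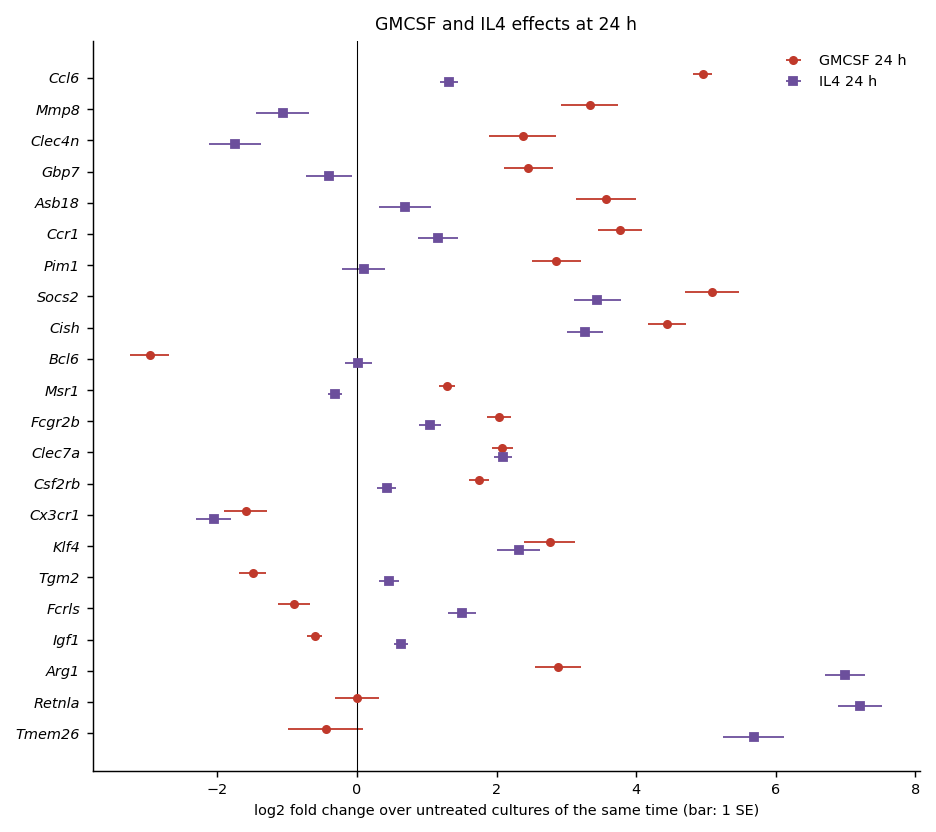
Effects of GMCSF (red circles) and IL4 (purple squares) at 24 h as log2 fold change over untreated cultures, with bars of 1 SE. Ccl6, Mmp8 and Clec4n lie to the right with GMCSF, Arg1, Retnla and Tmem26 to the right with IL4, and Clec7a at the same place with both.

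The plates were compared directly by the difference of the GMCSF effect between the Feb15 and May16 plates, a test added after the data were seen. Of 10833 genes tested, 21 differed (0.194%), 14 (0.129%) with a higher effect on the Feb15 plate and 7 (0.0646%) with a lower one. With quantile normalisation, which moved the median difference from 0.19 to 0.00, 4 were higher and 7 lower, and without replicates 5 and 6 only 5 differed. Atp6v0d2, a proton pump subunit, had a log2 fold change of 0.23 on the Feb15 plate and 2.12 on the May16 plate (adjusted p of the difference = 0.0178). Fabp5, a lipid carrier, had -0.33 and 1.15, the phagocytic bridging protein Mfge8 -1.30 and 0.20, and Htr2b, a serotonin receptor, -2.57 and -0.37. Htr2b was called lower over both plates and Fabp5 and Mfge8 were not called. These 4 genes were named after their values were seen, except Fabp5, which is on a list.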

How the data were processed

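Groups, doses and times were taken from the sample labels, and plate, lot, well and library pool from the header of the culture table. The authors assigned reads to the transcripts of Ensembl release 81 with salmon 0.7.1 and added up the transcripts of a gene. They scaled each culture by its mapped total, and the deposited values are CPM, although the paper calls them TPM. The submitters' notes also name the build mm8. The table holds 784 cultures, of which 406 columns were mapped to samples and the other 378 were not used. Since each culture is scaled to its own total, a rise in abundant genes lowers the rest. Depth was read from the step by which low values of a culture differ. Only 73.1% to 89.1% of low values at 24 h lay within 0.1 of whole reads, so counts were not rebuilt and no count test was run.

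Values were analysed as log2(CPM + 1), which understates changes of low genes. Genes with more than 5 CPM in at least 4 of the cultures compared were tested with limma 3.58.1 in R 4.3.3 (trended variance, Benjamini-Hochberg adjustment), with the culture plate as block. A gene could pass the filter on low values through its GMCSF cultures alone, as Cish and Cd74 did. Genes were called at an adjusted p under 0.05 and a log2 fold change of at least 1. The contrast with 72 h was the difference of the effects, and that with IL4 used the untreated cultures to link plates. The fit was tested on simulated data. Tables and figures were made in Python 3.11.15 (pandas 2.3.3, numpy 2.4.6, scipy 1.17.1, matplotlib 3.10.9).

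The members and lists were chosen with earlier results of these data known. Named genes were the 20 largest rises and the 12 largest falls with a mean of at least 5 CPM and the same direction on both plates, the receptor and its signalling genes, up to 6 called and 3 uncalled members of each of 21 lists, up to 3 called members of each module, and the 6 largest differences in each direction from 72 h and from IL4. This gave 201 genes, of which 198 were tested and 117 called. A few genes outside the rule are marked as such, and results for some genes that meet it are not reported here. Positions are those of GRCm38 and promoter windows those of RefSeq (GRCm38.p6).

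Alternatives were no block, library pool as block, untreated wells of the same plates only, all 24 h conditions in a single fit, other pseudocounts, filters and scalings, each GMCSF culture left out in turn, middle wells only (added after the data were seen) and, for named genes, an exact rank-sum test.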

Additional observations from a re-analysis of the deposited data

Results flagged for a closer look

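In 20 of the 117 named genes called, a GMCSF culture lay farther from the other 7 than Dixon's limit of 0.526 allows for 8 values. For normally distributed values chance flags about 1 in 20 groups. CPM values have a floor at 0 and need not follow that distribution, and the rate by chance for them was not tested. Of the 20 cultures flagged, 19 were at the high end and 7 were replicate 6, a shallow well. Replicate 6 was highest for Mmp8 (207 CPM, group median 47.8), Cdh1 (67.9, median 10.1), Bcl6 (28.1, median 4.69), H2-DMa (185, median 67.1), Nolc1 (384, median 101), Jmy (56.3, median 4.26) and Hcar2 (59.6, median 16.4). Replicate 8 was highest for Ccl9 (1186 CPM, median 676), Mamdc2 (21.9, median 1.24) and Cpeb1 (17.5, median 2.59), and lowest for Cmklr1 (23.4, median 63.1). Replicate 2 was highest for Gm17690 (6.64, median 0), Pde1c (20.6, median 4.05) and Calhm2 (43.7, median 11.6), and replicate 3 for Gpr162 (19.7, median 2.84), Fcgr2b (1581, median 969.8) and Cd244 (6.33, median 0.326). Replicate 7 was highest for Tcea2 (7.15, median 0) and Mlkl (182, median 19.3), and replicate 5 for Ltc4s (45.7, median 3.68). For Bcl6, Tcea2, Gpr162 and Mamdc2, which fell, the far culture was the one nearest the untreated level.

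The GMCSF effect differed between 24 h and 72 h, by a test of the difference itself (limma, adjusted p under 0.05), for these named genes. The effect at 24 h minus that at 72 h was -6.61 on the log2 scale for Cdca3, -6.08 for Ccnb2, -5.71 for Pbk, -5.61 for Cbr2, -5.52 for Cd109 and -5.41 for Ckap2. It was 3.70 for Gsta3, 3.60 for Clec4n, 3.50 for Gclm, 3.46 for Slc7a11, 3.24 for Exosc9 and 2.95 for Slc22a4. Exosc9 overlaps Ccna2 on the opposite strand, a cyclin with a difference of -5.04, and was not called within pools. All 11 others were called within pools. At 72 h untreated wells on the plates with GMCSF were edge or corner wells and 6 of 7 GMCSF wells middle wells, so in these fits duration and well position cannot be told apart. In middle wells without block, Cdca3 (-2.12) and Cbr2 (-4.24) were called, Exosc9 and Gsta3 did not pass the filter, and the other 8 genes were not called.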

How the results depend on the processing

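For GMCSF against untreated cultures at 24 h, 524 genes were called. Counts moved to 991 without the 2-fold limit, 797 with all 24 h conditions in a single fit, 229 with a pseudocount of 5 and 94 on the May16 plate alone (an alternative chosen after seeing the data), while the Feb15 plate alone gave 356. In middle wells alone, added after the data were seen, 567 genes were called, 202 higher and 365 lower, and 84.9% of the 524 were called again. Leaving out each GMCSF culture in turn gave 462 (without replicate 4) to 678 (without replicate 8). Among the genes named in the report, Clec10a lost its call without replicates 1, 3, 4 or 7, Angptl4 without 1, 2, 3, 5 or 6, Osm without 1 or 4, Gas6 without 2, 3, 4 or 8, Nop16 without 2, 3, 4, 5 or 8, Nolc1 without 4 or 6, Bcl2a1d without 1, 3, 4, 5, 6 or 8 and Cdca3 without 5 or 8, while Cd74 did not pass the filter without 2, 4, 5 or 6. Other alternatives stayed within 1.5 times: 589 without the block, 494 with library pool as block, 367 with untreated wells of the same plates only, 457 with quantile normalisation and 549 with TMM scaling, which moved the median of all genes from -0.07 to -0.11. Of 117 named genes called, 110 kept their call with pool as block, 103 without the block (not Tmem119, Olfml3, Gas6, Egr2, Mrc1, Osm or Clec10a), 111 with quantile normalisation, 96 with a pseudocount of 5 (not Cd74, Osm, Clec10a, Gas6 or Cbr2), 82 on the Feb15 plate alone and 41 on the May16 plate alone. An exact 2-sided rank-sum test without block, Bonferroni corrected over all genes tested, kept 33. The only reversal was Naaa, at -0.14 on the May16 plate alone. The contrast with 72 h (956) gave 134 without the block, 339 with pool as block and 423 in middle wells without block (added after seeing the data, 279 higher and 144 lower against 161 and 795), and that with IL4 (256) gave 1244 without the block, where plates differ between treatments. The plate contrast (21) gave 11 with quantile normalisation and 5 without the 2 shallow wells. Except where stated, the cause of a move was not tested. No paired analysis was possible because the labels give no replicate numbers and those used here follow the order of deposition. Depth limits low genes, for which 1 read is close to 1 CPM in the shallowest wells, and neither litter nor cell number per well is given in the sources used here.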
